A study of Mus musculus with 4 samples.

Results

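The spots described here were chosen by 4 genes of layer 6, the deepest layer of the neocortex: Rprm, Tbr1, Tle4 and Syt6. In each of 4 mouse brain sections, spots with at least 500 UMIs (unique molecular identifiers, each standing for 1 captured mRNA molecule) were scored by the summed UMIs of these 4 genes per 10000 UMIs. Of the spots with at least 2 UMIs of the 4 genes and at least 1 UMI of Slc17a7, the vesicular glutamate transporter of cortical excitatory neurons, the highest scores were kept up to 5% of each section. This gave 130, 141, 91 and 121 spots in trained 1, trained 2, untrained 1 and untrained 2, or 483 of 9676 spots in all. They are called layer 6-marker spots, because the choice rests on these genes and the other layer 6 genes and the position of the spots bore out the name of the layer in only some of them.

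The sections came from 2 trained and 2 untrained male ArcCreERT2::eYFPflx mice, 3 to 4 months old and on a C57BL/6 background, with 1 section per mouse, so n = 2 per group throughout. In these mice the promoter of the activity-dependent gene Arc drives a Cre recombinase that 4-hydroxytamoxifen switches on, and Cre then turns on eYFP at the Gt(ROSA)26Sor locus. Trained mice learned to avoid a shock zone on a rotating arena, and untrained mice had the same sessions with the shock off. All 4 mice received 4-hydroxytamoxifen under brief isoflurane before a retention test, were then housed alone in a sound-attenuated chamber, and were killed 3 days after the test. The sections were labelled hippocampus, but they also held neocortex and other brain regions. A Visium spot captures RNA from a small group of cells, so a lower level in a group of spots can mean fewer cells of a type or less RNA per cell, and these cannot be told apart.

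Layer 6 is best known for corticothalamic neurons, excitatory cells that send axons back to the thalamus and shape how sensory signals reach the cortex. It also holds intratelencephalic neurons, which project within the cortex and share genes with the claustrum, and at its lower border, next to the white matter, the thin layer 6b. Tbr1 is a transcription factor that sets deep-layer identity during development. Tle4 is a transcriptional co-repressor of corticothalamic neurons, Rprm (reprimo) a p53-induced regulator of the cell cycle that is a common layer 6 marker, and Syt6 a synaptotagmin. In the GRCm38 (mm10) assembly and the GENCODE vM21 annotation these genes lie at chr2:54084093-54085552 on the minus strand (Rprm), chr2:61802930-61814114 on the plus strand (Tbr1), chr19:14448150-14598051 on the minus strand (Tle4) and chr3:103575231-103645569 on the plus strand (Syt6).

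The layer 6-marker spots held more UMIs than the rest of their sections, which the UMI minima of the rule favour. Their median was 3191 UMIs in trained 1, 4170 in trained 2, 2943 in untrained 1 and 2994 in untrained 2, against 2099, 2640.5, 1299.5 and 1976 in all other spots. Summed over the spots of a section they held 495521, 720603, 311361 and 453076 UMIs, and these sums limit the precision of the levels given below. Untrained 1 was the shallowest section, and there 77.1% of the spots that met both UMI minima were needed to fill the 5%, against 45.5% to 49.8% in the other sections. Trained 2 was the deepest and also had the lowest share of mitochondrially encoded UMIs, 7.04% outside the layer 6-marker spots against 11.7% to 12.4% in the other sections.

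The choice itself rested on few molecules per spot. The last spot taken had a score of 6.33, 6.35, 4.62 and 5.91 in trained 1, trained 2, untrained 1 and untrained 2, and the next spot, left out, had 6.29, 6.26, 4.50 and 5.90. Spots with only 2 UMIs of the 4 genes made up 35.4%, 25.5%, 57.1% and 43.8% of the chosen spots. At least 2 of the 4 genes were seen in 74.6%, 87.9%, 65.9% and 73.6% of them. In untrained 1 more than in any other section, a spot was chosen on a pair of molecules.

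The 4 genes and Slc17a7 fixed the choice, so their levels are given as a description only. Slc17a7 stood at 1035, 996, 1034 and 1095 CPM (UMIs divided by the summed UMIs of the spots and scaled to 1e+06) in the layer 6-marker spots of trained 1, trained 2, untrained 1 and untrained 2, against 459, 347, 605 and 578 in all other spots. Rprm stood at 371, 383, 401 and 433 CPM in the same order, against 45.1, 35.9, 64.9 and 51.9 in all other spots. Tbr1 stood at 363, 422, 350 and 311 CPM against 58.4, 44.6, 52.2 and 54.9. Both genes were thus at similar levels in the chosen spots of all sections. Tle4 was rarer, at 117, 128, 99.6 and 119 CPM against 36.4, 35.1, 24.0 and 30.4. Syt6 varied most between sections, with 127, 62.4, 19.3 and 75.0 CPM, and in untrained 1 it rested on 6 UMIs. When spots were chosen by Rprm and Tle4 alone, the left-out Tbr1 was still 0.84 to 2.196 higher in them on the log2 scale in all 4 sections. Syt6 was 0.82 and 0.81 higher in trained 1 and trained 2 but lower in untrained 2, at 9.89 against 19.3 CPM (log2 ratio -0.79). In untrained 1 it rested on 1 UMI, too few to give a direction: 3.94 against 7.01 CPM, but a log2 ratio of 0.10 with 1 UMI added to each sum. When they were chosen by Tbr1 and Syt6 alone, Rprm was 0.75 to 2.29 higher in all 4 sections, and the log2 ratio of Tle4 was -0.45 in untrained 1, where it rested on 3 UMIs.

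Genes of layer 6 that the choice did not use showed how far the label held. For these, values are the log2 ratio of CPM in the layer 6-marker spots to that in all other spots of the same section, with 1 UMI added to each sum. The members share spots with the genes that chose them, so no test was made. As background, 22.5% of 9837 genes with at least 20 UMIs over the layer 6-marker spots were higher there in all 4 sections and 7.53% were lower in all 4, and the median gene stood at 0.11.

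Of the 13 corticothalamic genes in the files 10 had at least 20 UMIs, and 7 of these 10 were higher in the layer 6-marker spots of every section. Summed, the list stood at 492, 774, 440 and 530 CPM in trained 1, trained 2, untrained 1 and untrained 2, against 339, 342, 393 and 375 CPM elsewhere, a mean log2 ratio of 0.60 ± 0.42 (SD, n = 4 sections). The difference was largest in trained 2, at 1.18, and smallest in untrained 1, at 0.17. Igsf21, an immunoglobulin-family synaptic protein, was the most even member, with log2 ratios of 1.14, 1.39, 0.64 and 1.07. Hs3st4, a heparan sulfate sulfotransferase, had 0.63, 1.57, 0.29 and 0.77. Zfpm2, a transcriptional cofactor, had 0.47, 1.94, 0.95 and 0.82. Foxp2, the transcription factor that is among the most used corticothalamic markers, broke the pattern: it was 0.20, 0.85 and 0.86 in trained 1, trained 2 and untrained 2 but -0.76 in untrained 1, where 4 UMIs were counted. The remaining genes with 20 UMIs that were higher in every section were Sulf1, Garnl3, Crym and Fezf2, with log2 ratios between 0.08 and 1.64, while Nfia and Nfib were not. Ntsr1, the neurotensin receptor used to label corticothalamic cells, had 1, 10, 2 and 4 UMIs and Thsd7b 5, 8, 2 and 3, too few to read, and Lratd2 had 3, 4, 1 and 3.

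**Figure D1:**
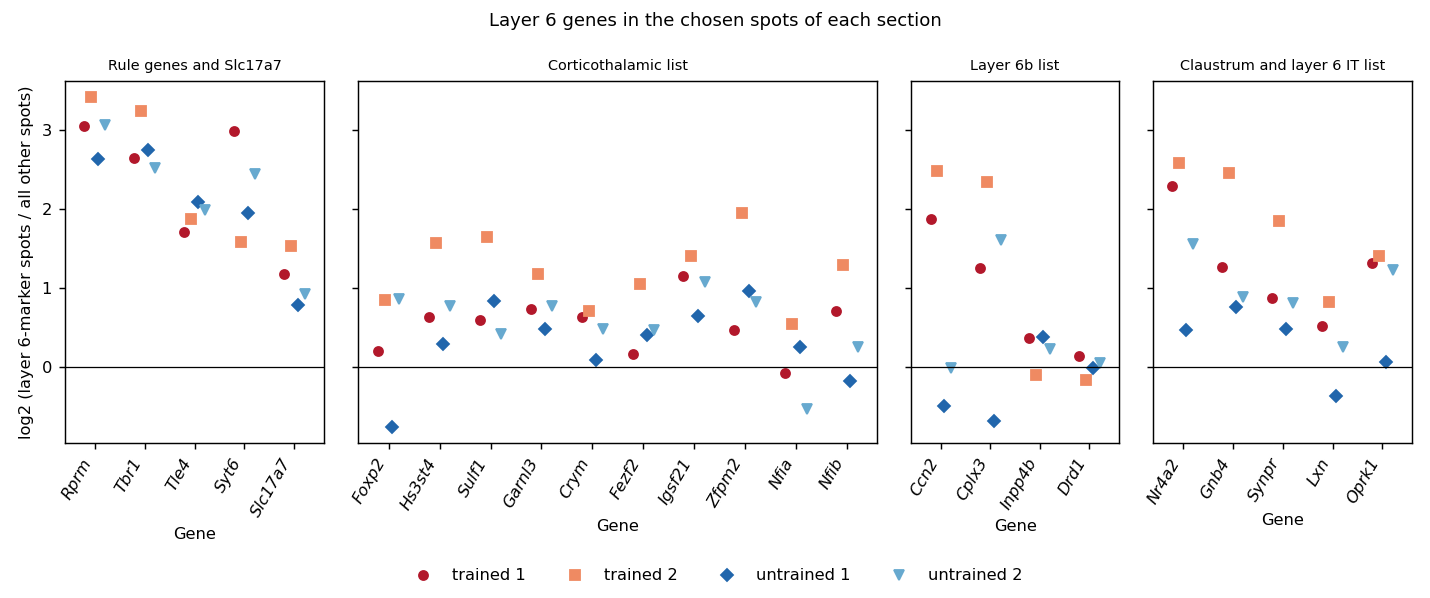
Log2 ratio of CPM in the layer 6-marker spots to all other spots (vertical axis) for genes of 4 lists with at least 20 UMIs (horizontal axis), 1 point per section. The rule genes are higher in all 4 sections by construction, the corticothalamic genes are mostly above 0 and highest in trained 2, and Ccn2 and Cplx3 are above 0 in both trained sections and below 0 in untrained 1.

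Layer 6b genes divided the sections. The 6 genes of the list summed to 143 and 241 CPM in the layer 6-marker spots of trained 1 and trained 2 but to 64.2 and 70.6 CPM in untrained 1 and untrained 2, with log2 ratios to all other spots of 0.999, 1.44, -0.25 and 0.18. Ccn2 made up much of the gap: without it the other 5 genes summed to 78.7 and 132 CPM against 54.6 and 57.4. Ccn2 (connective tissue growth factor), the best known marker of layer 6b, had ratios of 1.87, 2.47, -0.50 and -0.02. Cplx3, a complexin of presynaptic release, had 1.25, 2.34, -0.69 and 1.61. Moxd1 had 0.95, 0.97, 0.50 and 0.01 on 2 to 7 UMIs, and Nxph4 1.02, 0.08, 0.50 and -0.58 on 1 to 6 UMIs. Inpp4b and the dopamine receptor gene Drd1 stayed between -0.17 and 0.37. No gene of this list was higher in the layer 6-marker spots of all 4 sections among the 4 with at least 20 UMIs.

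Genes shared by the claustrum and layer 6 intratelencephalic neurons were the strongest of the 3 deep lists, with a mean log2 ratio of 1.02 ± 0.65 (SD, n = 4 sections). Of its 5 genes with at least 20 UMIs 4 were higher in every section. Nr4a2, a nuclear receptor that marks the claustrum and deep cortex, stood at 151, 189, 45.0 and 104 CPM in trained 1, trained 2, untrained 1 and untrained 2 against 31.3, 31.9, 34.7 and 35.9 elsewhere. Gnb4, a G protein subunit, had log2 ratios of 1.26, 2.45, 0.76 and 0.88, and Synpr (synaptoporin, a synaptic vesicle protein) 0.87, 1.84, 0.47 and 0.81. Untrained 1 again had the smallest differences of the 4 sections for these 3 genes. The sums of the lists for the other layers were close to even: layer 5 genes had a mean log2 ratio of 0.02 ± 0.23 and upper-layer genes -0.02 ± 0.24 (SD, n = 4 sections). Their members went both ways: of 8 upper-layer genes 3, Cux2 and Lamp5 among them, were higher in every section and 1 (Rorb) lower, and of 7 layer 5 genes 0 were higher and 1 (Parm1) lower.

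Position on the array, which the choice did not use, also differed between sections. A spot has up to 6 adjacent spots, and on average 21.3%, 39.5%, 13.9% and 14.3% of the spots next to a layer 6-marker spot were layer 6-marker spots too, in trained 1, trained 2, untrained 1 and untrained 2, against the 5% that the rule takes. The same share was 10.1%, 16.4%, 7.55% and 12.6% for layer 5-marker spots and 17.2%, 14.6%, 10.3% and 20.8% for upper-layer-marker spots, so in untrained 2 the upper-layer-marker spots touched each other more often. These shares rest on 122, 141, 53 and 121 layer 5-marker spots and 130, 141, 91 and 121 upper-layer-marker spots. The layer 5-marker spots thus fell short of 5% in trained 1 and most in untrained 1. For layer 6-marker spots both trained sections were above both untrained ones, with a two-sided exact permutation p of 0.333, the smallest that 2 against 2 sections can give. Spots with no chosen neighbour made up 38.5%, 16.3%, 47.3% and 51.2%. The largest connected set held 79 spots in trained 2 and 11, 11 and 8 in trained 1, untrained 1 and untrained 2.

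In trained 2 the 79 spots lay a median of 8 steps from the tissue edge. Layer 5-marker spots were chosen in the same way by Etv1, Parm1, Bcl6 and Deptor, from spots not taken for layer 6. Upper-layer-marker spots were chosen by Cux2, Lamp5, Rasgrf2 and Stard8 from the spots then left. In that section they lay a median of 5 and 4 steps from the edge. The median distance of the set of 79 spots from the nearest oligodendrocyte-rich spot (the 5% of spots with the highest share of myelin genes) was 4 steps. Its corticothalamic, layer 6b and claustrum lists had log2 ratios of 1.27, 1.55 and 2.26. The claustrum list was thus the highest of the 3, and Nr4a2, Vxn and Gnb4 followed Rprm and Tbr1 among its leading genes. Trained 2 was also the section in which most layer 6-marker spots, 44.0%, lay within 3 steps of an oligodendrocyte-rich spot, against 21.5% in trained 1, 5.49% in untrained 1 and 24.0% in untrained 2. In all other spots, which include all of the oligodendrocyte-rich spots themselves, this share was 25.7% to 28.4%. Over all layer 6-marker spots the median distance to the tissue edge was 6, 6, 4 and 6 steps, and that of the upper-layer-marker spots 2, 4, 4 and 2. The layer 6-marker spots thus lay farther from the edge than the upper-layer-marker spots in 3 sections, and at the same median distance in untrained 1. They lay 1 step farther than the layer 5-marker spots in trained 1 and trained 2 and at the same median distance in untrained 1 and untrained 2.

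**Figure D2:**
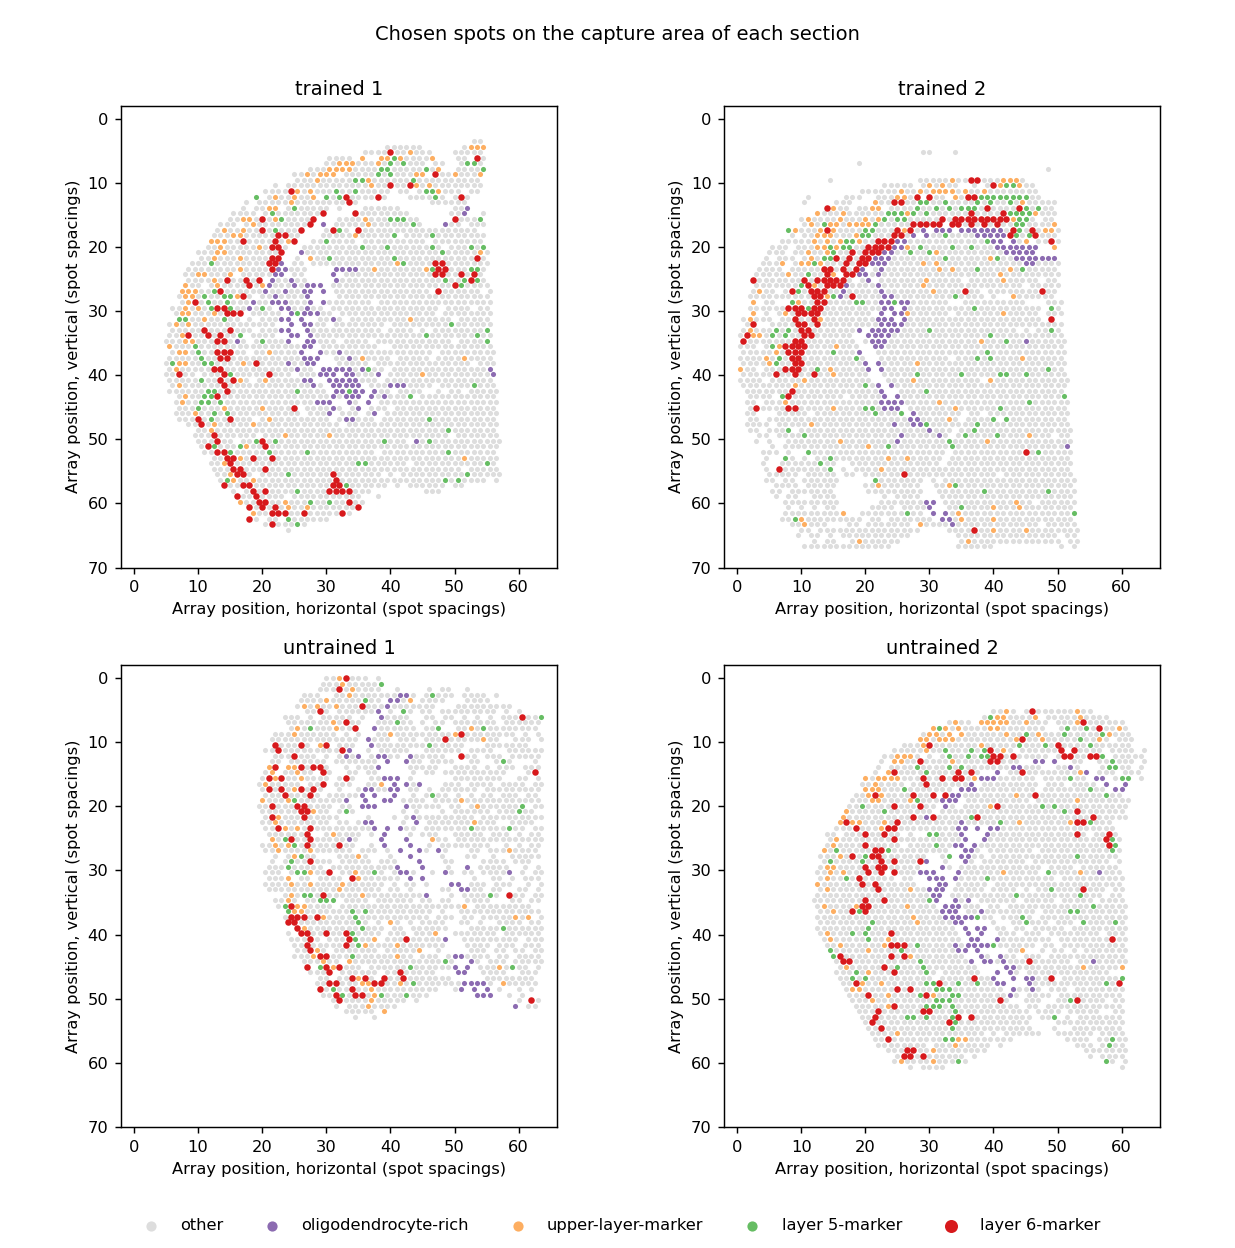
Position of each spot with at least 500 UMIs on the capture area of the 4 sections, in units of the spot spacing on both axes, colored by the kind of spot. Layer 6-marker spots form 1 large connected set of 79 spots in trained 2 and are broken into sets of at most 11 spots in the other sections.

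The sets outside trained 2 were not alike. In trained 1, a set of 6 spots was led by Nr4a2, Rprm, Tbr1 and Ccn2, with a layer 6b log2 ratio of 2.83, and a set of 11 spots 2 steps from the oligodendrocyte-rich spots had a corticothalamic ratio of 0.78 and a layer 6b ratio of 1.85. Another set of 6 spots in the same section was led by Gng8, Tac2 and Calb2: it held 23 of the 63 Syt6 UMIs but only 2 of Rprm and 1 of Tbr1. Sets of 9 and 7 spots in trained 1, and the largest set of untrained 1 (11 spots), lay 2 or 3 steps from the tissue edge and 17 or 18 steps from oligodendrocyte-rich spots. They were led by Rprm with Lmo3, Nptxr or Slc30a3. The pair in trained 1 had 0 UMIs of both Tle4 and Syt6 in 50662 and 33130 UMIs, which allows up to 59.2 and 90.6 CPM at 3 counts, and the set in untrained 1 had 1 UMI of each. In untrained 2 the largest set, of 8 spots 9 steps from the edge, was led by Rprm, Nr4a2 and Vxn, with corticothalamic, layer 6b and claustrum ratios of 0.86, 0.67 and 1.84. Genes and position fitted the name of layer 6 best in trained 2, in some sets of trained 1 and untrained 2, and least in untrained 1.

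Chosen spots with chosen neighbours carried more of the corticothalamic list than single ones in 3 sections. The corticothalamic list stood at 507, 823, 428 and 654 CPM in touching spots of trained 1, trained 2, untrained 1 and untrained 2, and at 460, 401, 457 and 384 CPM in single spots. In untrained 1 the order was turned. Layer 6b and claustrum genes were higher in touching spots of all 4 sections, by little in untrained 1 (65.9 against 61.9 and 368 against 325 CPM), while the 4 rule genes were lower in touching spots of trained 1 (955 against 1032) and untrained 1 (867 against 875). Spots that were not chosen but touched a chosen one also stood above the remaining spots, with log2 differences of 0.40, 0.67, 0.17 and 0.38 for the corticothalamic list and 0.72, 1.05, 0.51 and 0.66 for the claustrum list. For layer 6b genes the differences were 0.83, 1.02, -0.02 and 0.37, so untrained 1 did not share it.

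Beyond the layer lists, genes of excitatory neurons were among those higher in the layer 6-marker spots of every section, which the requirement for Slc17a7 fixed in part. Outside those lists the 20 with the most even excess, ranked by their smallest log2 ratio over the 4 sections, ranged from 0.57 in the lowest section to 2.64 in the highest. Rasl10a, a small GTPase of the Ras family, led them with 1.60, 1.91, 0.95 and 0.98. Ttc9b followed with 1.05, 1.79, 0.90 and 0.93, and Ipcef1 with 1.05, 2.64, 1.17 and 0.80. Nptx1 (neuronal pentraxin 1), which clusters AMPA receptors, had 0.96, 1.73, 0.68 and 1.08, and Neurod2, a transcription factor of excitatory neurons, 0.76, 1.17, 1.11 and 0.63. Olfm1, a secreted olfactomedin, stood at 1838, 1899.8, 1892 and 1999.7 CPM against 1063, 946, 1154 and 1288. Lmo3 and Slc30a3 (the vesicular zinc transporter) were also among the 20 and, unlike most, were lowest in trained 2, at 0.61 and 0.65. The remaining members were Necab3, Ccn3, Rasgef1c, Fhl2, Ctxn1, Cabp1, Olfm2, Mpped1, Gda, Fam131b, Ephx4 and Cplx2.

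Genes of the thalamus and of glia were lower. All 5 thalamic genes with at least 20 UMIs were lower in the layer 6-marker spots of every section, with summed log2 ratios of -1.30, -2.04, -1.12 and -1.26, and so were all 9 oligodendrocyte genes, at -0.56, -0.39, -0.78 and -0.72. The 10 genes with the most even deficit included Ttr (transthyretin, of the choroid plexus), at -1.31, -1.16, -1.38 and -1.60, and Sparc, a glial and vascular matrix protein, at -1.36, -1.995, -0.96 and -1.13. Slc17a6, the glutamate transporter of the thalamus, had -0.52, -1.91, -0.59 and -1.08. Selenop, Slc6a11, Apod, Trf, Cnp and Ptpn4 were also among them. Of the astrocyte genes 5 of 7 were lower in every section and of the microglial genes 4 of 8. Striatal genes were not lower throughout, with summed ratios of -0.34, -1.03, 0.09 and 0.15 and 0 of 6 genes lower in every section, and of the hippocampal genes 2 of 6 were. Oligodendrocyte genes were not absent: they made up 0.267% to 0.560% of the UMIs of the layer 6-marker spots, with the highest share in trained 2.

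Of 30 synaptic vesicle genes 19 were higher in every section and 3 lower, with summed log2 ratios of 0.22 to 0.43. This list includes Slc17a7, which the choice required and which is among the 19. Of 28 postsynaptic genes 14 were higher and none lower. Mitochondrially encoded genes went the other way: all 13 were lower in every section, and they made up 10.2%, 4.07%, 10.7% and 10.2% of the UMIs in the layer 6-marker spots of trained 1, trained 2, untrained 1 and untrained 2, against 12.4%, 7.04%, 12.2% and 11.7% elsewhere. The low share of trained 2 was seen in both kinds of spot. Nuclear genes of oxidative phosphorylation had summed log2 ratios of -0.10 to -0.01, with 17 of 76 genes lower in every section and 3 higher. Of 77 cytoplasmic ribosome genes 32 were lower in every section and 0 higher, with summed log2 ratios of -0.15 to -0.06. In all genes these shares were 7.53% lower and 22.5% higher.

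Immediate early genes, which neurons transcribe within minutes of activity, were higher in the layer 6-marker spots in every section for 12 of 19 genes and lower in every section for none, with summed log2 ratios of 0.44, 1.15, 0.23 and 0.57. Egr1, a zinc finger transcription factor, stood at 297, 627, 135 and 422 CPM in trained 1, trained 2, untrained 1 and untrained 2, against 187, 217, 102 and 243 elsewhere. Arc, a synaptic regulator and the driver of the tagging transgene, stood at 204, 408, 51.4 and 205 CPM against 135, 114, 51.3 and 131. Trained 2 was highest and untrained 1 lowest for both genes. The excess over the other spots was shared in part by the upper-layer-marker spots, with 225, 221, 57.4 and 190 CPM of Arc and 282, 452, 128 and 411 CPM of Egr1, and the summed list there stood at 1710, 1935, 826 and 1931 CPM against 1641, 2610, 951 and 2031 in the layer 6-marker spots. Junb, Homer1 and Btg2 were higher in all 4 sections, with log2 ratios of 0.40 to 1.117, 0.45 to 1.05 and 0.72 to 0.98. Nr4a1 and Fos were not, with -0.84 and -0.20 in untrained 1. The Gt(ROSA)26Sor locus did not stand out: 135, 119, 12.8 and 216 CPM in the layer 6-marker spots against 121, 123, 13.3 and 221 elsewhere. Its low level in untrained 1, 4 UMIs, was a feature of the whole section.

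**Figure D3:**
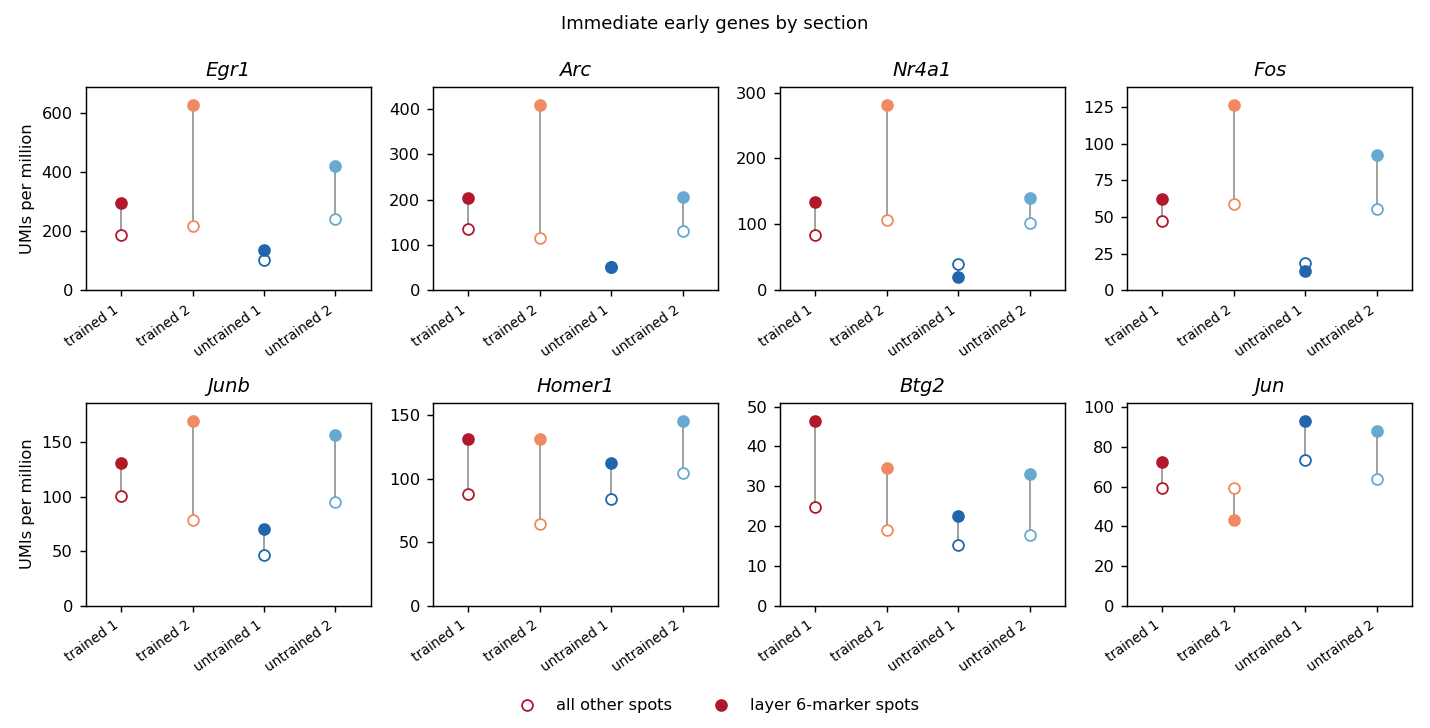
Level in CPM of 8 immediate early genes (vertical axes, linear from 0) in the layer 6-marker spots (filled) and in all other spots (open) of each section (horizontal axes). Egr1, Junb, Homer1 and Btg2 are higher in the layer 6-marker spots of all 4 sections, and in the layer 6-marker spots untrained 1 is the lowest section for every gene shown except Jun.

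Whether training changed the layer 6-marker spots was asked by comparing their summed counts between the 2 trained and the 2 untrained sections. No gene of 7730 tested passed an adjusted p of 0.05 (edgeR quasi-likelihood test, Benjamini-Hochberg adjusted; 0% called). At an unadjusted p under 0.05 there were 497 genes (6.43%), 224 higher and 273 lower in trained sections, and DESeq2 called 0 genes, with 59 at an unadjusted p under 0.05. The p-values rest on the spread between these 4 sections, 1 per mouse, and for the larger part on a spread pooled over genes (2 residual and 11.4 prior degrees of freedom). The count depended on single sections: without trained 1 it was 187, without trained 2 it was 8, without untrained 1 it was 13 and without untrained 2 it was 44, each from a fit in which 1 group has a single section that is assumed to vary like the others.

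Ccn2, the layer 6b gene at chr10:24595442-24598683 on the plus strand, had the smallest p. It had 32 and 79 UMIs in the layer 6-marker spots of trained 1 and trained 2 and 3 and 6 in untrained 1 and untrained 2, or 64.6 and 110 CPM against 9.64 and 13.2. The groups did not overlap, as in 23.5% of the genes tested with trained above untrained and 13.2% with trained below. The log2 difference was 2.81 ± 0.42 (SE), with an edgeR adjusted p of 0.109, which did not pass. Over 15 alternatives the difference was between 1.70 and 3.29 and the adjusted p between 5.22e-10 and 0.530, under 0.05 in 6 of them, among these all 4 that left out a section. Cplx3, the other layer 6b gene tested, stood at 26.2 and 81.9 CPM against 3.21 and 26.5, where the groups overlapped, with a log2 difference of 1.66 ± 0.61 (SE) and an adjusted p of 0.758.

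The other 9 genes with the smallest p had edgeR adjusted p-values of 0.232 to 0.758. Of these, Nxph3 (neurexophilin 3, a neurexin ligand of deep cortical layers) had 34.3 and 66.6 CPM in trained 1 and trained 2 against 6.42 and 11 in untrained 1 and untrained 2. Pllp (plasmolipin, of myelin) had 58.5 and 118 CPM against 19.3 and 28.7, and Neat1, the long noncoding RNA of paraspeckles, 30.3 and 93.0 against 12.8 and 11. These 3 genes were on the side of higher levels in trained sections, with log2 differences of 2.40, 1.78 and 2.34. On the other side, Phyhip stood at 62.6 and 72.2 CPM against 148 and 150, a log2 difference of -1.22. Mt2 (metallothionein 2) stood at 131 and 128 CPM against 234 and 252, a log2 difference of -0.996. The transcripts 2900052N01Rik (-1.85) and AY036118 (-2.62) and the genes Nova2 (-1.58), a splicing factor of neurons, and Gpr22 (-1.39), an orphan receptor, were also lower in both trained sections. The groups were also apart in the same direction in all other spots for 7 of the 9, Mt2 and Nxph3 excepted: 2 had both trained sections above and 5 had both below. Of the 7730 genes tested, 28.8% had both trained sections above in all other spots and 14.1% had both below. All other spots held 59.7 and 55.4 CPM of Phyhip against 134 and 108, and 36.5 and 35.2 CPM of 2900052N01Rik against 110 and 104. There AY036118 stood at 11.5 and 7.96 CPM against 71.0 and 29.4, Pllp at 72.0 and 159 against 62.6 and 69.4, and Neat1 at 62.5 and 103 against 49.0 and 49.8. Nova2 stood at 37.4 and 32.6 CPM against 53.8 and 45.5, and Gpr22 at 36.5 and 26.2 against 44.8 and 38.4. Each of these 9 genes passed the threshold in at least 1 of the fits that left out a section, and all 9 did so without trained 1. Without trained 2 it was 2900052N01Rik alone (adjusted p = 0.0496, edgeR).

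By list, most layer 6 genes had fitted differences above 0, with no gene past the threshold. Fitted log2 differences were above 0 for 9 of 10 corticothalamic genes, with a median of 0.43, for 4 of 4 claustrum and intratelencephalic genes (0.64) and for both layer 6b genes (2.23), where the median of all genes tested was 0.00. Of all genes tested, 3902 of 7730 were above 0, which is the background for this and the later lists. The groups overlapped in the summed corticothalamic list, in which trained 1 (492 CPM) lay below untrained 2 (530 CPM), and 4 of its 10 genes had both trained sections above both untrained ones, against 23.5% of all genes. Among corticothalamic genes Hs3st4 stood at 72.7 and 144 CPM against 51.4 and 61.8 (log2 difference 0.87 ± 0.31, SE; adjusted p = 0.758, edgeR). Crym (mu-crystallin, a thyroid hormone binding protein) was the exception, at 84.8 and 94.4 CPM against 109 and 121. Nr4a2 stood at 151 and 189 CPM against 45.0 and 104, with the groups apart. The 4 rule genes, whose summed share the choice sets, had a median of 0.12. Other cortical lists lay the other way in the same spots. Of 7 upper-layer genes 3 had both trained sections below both untrained ones, against 13.2% of all genes, and the list had a median of -0.17. They were Rasgrf2, at 113 and 61.1 CPM against 212 and 115, Rorb, at 14.1 and 12.5 against 28.9 and 24.3, and Calb1 (calbindin), at 101 and 73.5 against 170 and 108. Of 8 genes of cortical excitatory neurons 3 also lay below in both trained sections and 1 above, with a median of -0.15. The 8 include Slc17a7, which the choice required, with a log2 difference of -0.146 and overlapping groups. Whether the chosen spots held a different mix of layers in trained and untrained sections was not tested. Trained 2, the section with the largest connected set, was the highest of the 4 sections in the corticothalamic, layer 6b and claustrum lists, and the part of position in these differences was not tested.

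Oligodendrocyte genes moved with the same sections: fitted differences were above 0 for 9 of 9 genes, with a median of 0.63, and their summed level was 2888 and 5602 CPM in trained sections against 2669 and 2896 in untrained ones, so the groups overlapped. Mbp (myelin basic protein) stood at 1411 and 2732 CPM against 1201 and 1307. The higher values came from trained 2. Astrocyte genes, with 1 of 7 above 0 and a median of -0.15, did not share this. Whether the oligodendrocyte RNA has a part in the differences of Pllp, Neat1 or Ccn2 was not tested.

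**Figure D4:**
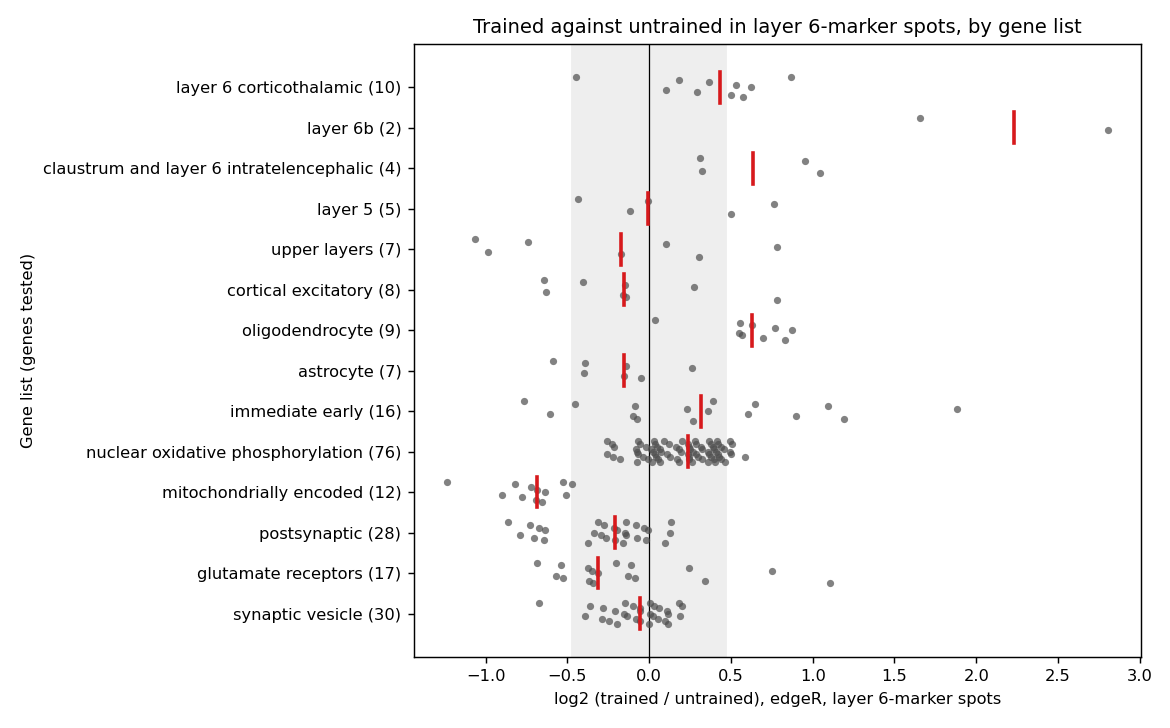
Log2 difference between trained and untrained sections in the layer 6-marker spots (horizontal axis, edgeR) for the genes of 14 lists (vertical axis), 1 point per gene, with the median of each list as a red bar; the grey band spans the 10th to 90th percentile of all 7730 genes tested, -0.47 to 0.47. Medians lie highest for the layer 6b, claustrum and oligodendrocyte lists and lowest for the mitochondrially encoded genes, and no gene passes an adjusted p of 0.05.

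Immediate early genes gave no call between the groups. Of 16 tested, 10 had fitted differences above 0, with a median of 0.32, and both trained sections lay above both untrained ones for 3 (Ier2, Btg2 and Bdnf) and below for 1 (Jun), smaller shares than the 23.5% and 13.2% of all genes. Ier2 stood at 26.2 and 44.4 CPM against 6.42 and 11, on 2 and 5 UMIs in the untrained sections (log2 difference 1.88 ± 0.54, SE; adjusted p = 0.758, edgeR). Arc, at 204 and 408 CPM against 51.4 and 205, had 1.09 ± 0.40 (SE) and an edgeR adjusted p of 0.758. Left out in turn, trained 1 and untrained 2 decided the call for Arc, Egr1, Nr4a1 and Fos: without trained 1 the Arc difference was 1.43 (adjusted p = 1.40e-07, edgeR), without untrained 2 it was 2.48 (2.54e-08), and without trained 2 or untrained 1 it was 0.55 and 0.50 and did not pass. Jun and Ier2 passed without trained 1 only. Egr1 (0.60), Nr4a1 (1.19), Fos (0.65), Junb (0.27), Egr4 (0.23), Dusp1 (0.36), Homer1 (-0.07), Jund (-0.09), Egr3 (-0.10), Nr4a3 (-0.45) and Fosl2 (-0.61) all had overlapping groups. In each of these genes except Nr4a1 the 2 untrained sections differed from each other by more CPM than the group means did, as in Egr1, at 135 and 422 CPM, and Fos, at 12.8 and 92.7 CPM. Gt(ROSA)26Sor had a log2 difference of -0.07 ± 0.54 (SE) and an edgeR adjusted p of 0.995. Without untrained 2 it was 3.19 (adjusted p = 3.83e-06, edgeR), since the remaining untrained section held 4 UMIs.

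Lists of cell function were described in the same way. All 12 mitochondrially encoded genes tested had fitted differences below 0, with a median of -0.69, and 5 of 12 lay below in both trained sections, against 13.2% of all genes. Among them mt-Co1 (cytochrome c oxidase subunit 1) stood at 19983 and 8442 CPM against 18175 and 19858, so trained 2 alone was low in it, while mt-Nd5 (NADH dehydrogenase subunit 5), named after its values were seen, stood at 874 and 384 CPM against 1118 and 1115. Nuclear oxidative phosphorylation genes lay the other way, 61 of 76 above 0 with a median of 0.24, and 43 of 76 with both trained sections above both untrained ones, against 23.5% of all genes. Their sum was apart in the same direction in all other spots, at 40670.5 and 48277 CPM against 33280 and 37732. Among postsynaptic genes 3 of 28 were above 0, with a median of -0.21, and 10 of 28 lay below in both trained sections, against 13.2% of all genes. In all other spots the summed postsynaptic list was also lower in both trained sections, at 6226 and 5119 CPM against 6797 and 6962. Camk2a, the alpha subunit of calmodulin kinase II, stood at 535 and 340 CPM against 639 and 656, and Nrgn (neurogranin) at 1915 and 2337 against 2133 and 2302. Glutamate receptor genes had 4 of 17 above 0 and a median of -0.31, GABA receptor genes 3 of 12 and -0.15, synaptic vesicle genes 14 of 30 and -0.06, cytoplasmic ribosome genes 49 of 77 and 0.08, glycolytic genes 10 of 16 and 0.04, and chaperones 3 of 12 and -0.13.

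The last comparisons asked whether the training difference of the layer 6-marker spots differed from that of other spots in the same sections. Against all other spots, 3 of 12010 genes passed (0.025% called; edgeR test of the difference between the training effects, with each section as a block, Benjamini-Hochberg adjusted), 1 with a higher and 2 with a lower value in the layer 6-marker spots. Ccn2 was the gene with the higher value: the other spots held 18.0 and 19.9 CPM in trained 1 and trained 2 and 17.8 and 15.5 in untrained 1 and untrained 2, so the difference of differences was 2.70 ± 0.48 (SE; adjusted p = 0.0118). It did not pass without trained 2 or without untrained 1, nor with DESeq2, the smoothed score or the top 3%, and passed in 9 of 15 alternatives. With 1 section left out the difference of differences was 2.33 to 3.12. With the top 5% of spots taken before the UMI minima, the other reading of the rule, none of the 3 genes passed. In layer 5-marker spots Ccn2 stood at 20.5 and 31.6 CPM against 27.1 and 12, and in upper-layer-marker spots at 8.76 and 12.3 against 12.8 and 9.39, so the groups overlapped in both.

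The 2 genes with lower values encode peptides of the lateral hypothalamus. Pmch (melanin-concentrating hormone) stood at 14.1, 233, 302 and 362 CPM in the layer 6-marker spots of trained 1, trained 2, untrained 1 and untrained 2, against 64.5, 1411, 803 and 538 CPM in all other spots (difference of differences -1.62 ± 0.21, SE; edgeR adjusted p = 1.07e-04). Hcrt (orexin) stood at 0, 132, 57.8 and 97.1 CPM against 0.764, 637, 105 and 22.2 (-2.93 ± 0.46, SE; edgeR adjusted p = 0.00250); the 0 UMIs of trained 1 allow up to 6.05 CPM at 3 counts. In all other spots both genes were highest in trained 2, and trained 1 was the lowest section in every kind of spot. Without trained 2 neither passed, both at an adjusted p of 1.0, and Hcrt also did not pass without untrained 2 (0.405) or with DESeq2 (1.0). Both were lost with the smoothed score, the top 3% and touching spots only, and Pmch passed in 10 and Hcrt in 8 of 15 alternatives. How much hypothalamus each section held was not measured here.

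Against layer 5-marker spots 1 of 8827 genes passed (0.0113% called), again Hcrt, with -2.66 ± 0.51 (SE) and an edgeR adjusted p of 0.0379; 408 genes had an unadjusted p under 0.05. It did not pass without trained 2 (0.999) or without untrained 2 (0.945). Against upper-layer-marker spots 0 of 8827 genes passed, with 383 at an unadjusted p under 0.05, and DESeq2 called 0 genes in both comparisons. Apart from Hcrt, no difference in training effect between layer 6-marker spots and those of the other layers was called with these 4 sections. Hcrt stood at 57.8 CPM in layer 6-marker and 58.8 in layer 5-marker spots of untrained 1, and at 97.1 and 10.3 in untrained 2. In trained 1 there were 0 and 1 UMIs, and in trained 2 the levels were 132 and 254 CPM. Whether the Hcrt call has to do with training was not tested.

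**Figure D5:**
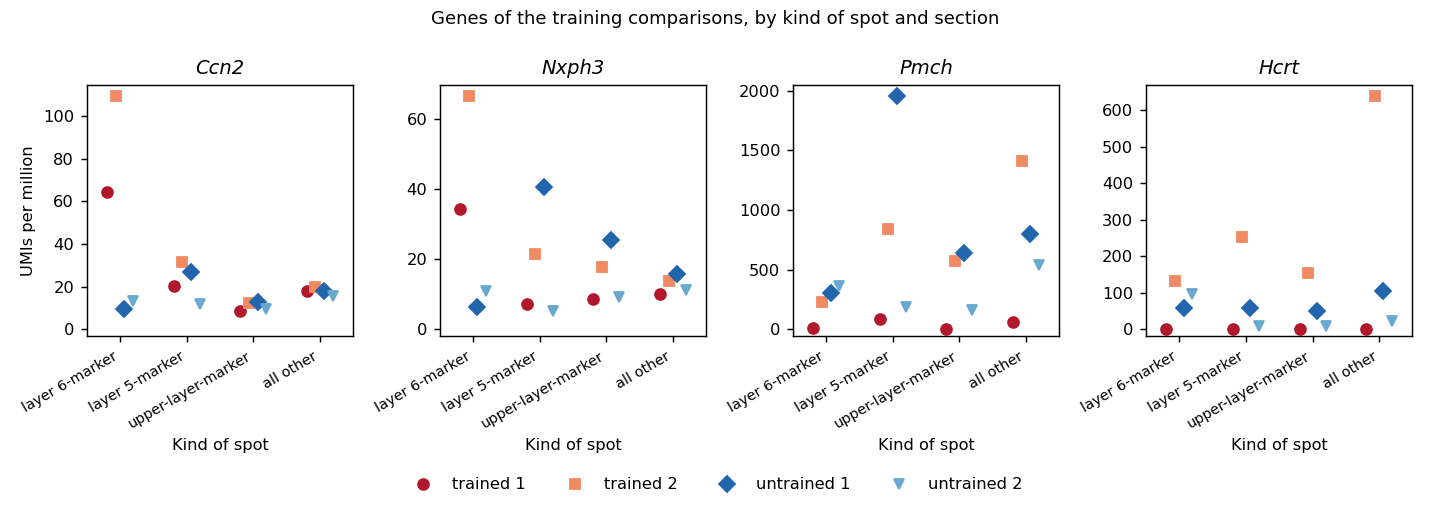
Level in CPM (vertical axes, linear) of Ccn2, Nxph3, Pmch and Hcrt in 4 kinds of spot (horizontal axes), 1 point per section. Ccn2 separates trained from untrained sections in the layer 6-marker spots, at 64.6 and 110 against 9.64 and 13.2, while Pmch and Hcrt are lowest in trained 1 in every kind of spot.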

How the data were processed

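Each of 4 mice gave 1 coronal brain section, from which spot-wise mRNA counts were obtained on a Visium array. The values the authors deposited are raw UMI counts per gene and spot for 32285 genes. The file header names Space Ranger 1.2.2, the methods a later version against mm10, and the submitters' processing notes Cell Ranger 8, STAR and GRCm39; which of these made the files is not settled, and the gene identifiers were located in GENCODE vM21 (GRCm38). Levels were read as CPM of the summed spots.

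Counts were summed over the chosen spots of each section, because the spots of 1 section come from 1 mouse; the rank-sum test over spots that the methods describe was therefore not used. Sums were compared with edgeR 4.0.16 in R 4.3.3 (filterByExpr, TMM, glmQLFit and glmQLFTest), with Benjamini-Hochberg adjustment over all genes tested and 0.05 as the threshold. The training test had 2 residual degrees of freedom and 11.4 prior ones, which stand for the spread pooled over genes. The test against all other spots had 2 and 29.5, and the tests against the other layers 4 and 42.8. Differences of training effects were fitted with the section as a block. The code was tested on simulated data. Ratios of chosen to other spots add 1 UMI per sum and have no test.

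Named genes were the rule genes, the layer lists, the 20 most even higher and 10 most even lower genes with at least 20 UMIs in every section, the 10 smallest p where fewer passed, every gene past the threshold in the differences of training effects, the immediate early list, Gt(ROSA)26Sor, and up to 4 members of highest mean level of each function list. Limits drawn from a count of 0 use 3 counts and cover counting error only. The spots and lists were chosen with earlier results of these data known. The rule can also be read as taking the top 5% first and applying the UMI minima afterwards; this reading was added after seeing the data. The other alternatives were DESeq2 1.42.0, no filter on low counts, RLE size factors, abundant genes left out, thinned sums, a score smoothed over adjacent spots, the top 3% or 10%, touching spots only, the replicate number as a block, and each section left out. Of the 4 sections, 1330 barcodes were in all, since barcodes name array positions. Some genes of the lists are not reported here.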

Additional observations from a re-analysis of the deposited data

Results flagged for a closer look

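In 4 results the training difference of the layer 6-marker spots differed from that of other spots of the same sections by the test of the difference itself (edgeR, adjusted over all genes tested). Against all other spots the log2 difference of differences was 2.70 for Ccn2, -1.62 for Pmch and -2.93 for Hcrt, and against layer 5-marker spots it was -2.66 for Hcrt. Ccn2 was higher in the layer 6-marker spots of both trained sections than in those of both untrained ones. The other 5 layer 6b genes summed there to 78.7 and 132 CPM against 54.6 and 57.4. Pmch and Hcrt had 422 and 5 UMIs in all other spots of trained 1 and 13466 and 6080 in those of trained 2. The part of section level in these differences was not tested.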

How the results depend on the processing

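Counts of genes past the threshold varied with the settings. Trained against untrained, 0 genes in the reported fit became 38 with no filter on low counts, 1 with the top 10%, 67 with the replicate block, and 8 to 187 with 1 section left out; 0 were called with every other setting. Against all other spots, 3 became 1 with DESeq2, 9 with no filter, 0 with the smoothed score, 10 with the top 10%, 1 with touching spots only, 16 with the replicate block and 2 to 135 with 1 section left out; the 3 called with the top 3% and the 2 called with the top 5% taken before the UMI minima shared 0 genes with the reported 3. Against layer 5-marker spots, 1 became 0 with DESeq2, thinned sums, the smoothed score, the top 3% and touching spots only, 2 with no filter, 3 with the replicate block and 0 to 23 with 1 section left out; the 1 called with the top 5% taken first was not Hcrt. Against upper-layer-marker spots, 0 became 2 with no filter, 1 with thinned sums, 3 with the top 10%, 3 with the replicate block, 1 to 16 with 1 section left out and 2 with the top 5% taken before the UMI minima. The replicate numbers are not known to pair sections: the labels tie them to nothing shared, and same-numbered deviations correlated at 0.063 over 7730 genes. Fits without a section leave 1 group with a single library. The share of adjacent spots that were layer 6-marker spots, 22.3% on average, became 48.0% with the smoothed score and 34.4% with touching spots only, both of which use the neighbours, 13.6% with the top 3%, 11.9% with the top 5% taken first (4.44% in untrained 1), and 16.5% to 25.0% with 1 section left out. Mean log2 ratios to all other spots kept their direction with 1 section left out: 0.41 to 0.74 for the corticothalamic list, 0.31 to 0.88 for layer 6b, 0.74 to 1.26 for the claustrum list and 0.41 to 0.72 for immediate early genes. Among named genes none past the threshold turned except Hcrt against layer 5-marker spots, 0.054 with the top 3%. Trained against untrained, differences that did not pass turned sign with 1 section left out in Fos (-0.031 to 2.79), Fosl2 (-1.13 to 0.63), Junb (-0.14 to 1.0), Egr3 (-0.47 to 0.54), Egr4 (-0.12 to 0.86), Nr4a3 (-1.34 to 2.31), Dusp1 (-0.19 to 0.97), Homer1 (-0.23 to 0.13) and Gt(ROSA)26Sor (-0.85 to 3.19). They also turned in Jund with the smoothed score (0.052), the top 3% (0.074) and the top 5% taken first (0.085), in Egr3 with thinned sums (0.21), the top 3% (0.17) and the top 5% taken first (0.063), in Egr4 with the top 10% (-0.25) and the top 5% taken first (-0.031), in Nr4a3 with thinned sums (0.18), and in Gt(ROSA)26Sor with DESeq2 (0.072), thinned sums (0.11), touching spots only (0.024) and the replicate block (0.050). The cause of these changes was not tested. Depth limits untrained 1 most, with 311361 UMIs in its layer 6-marker spots.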
